A study of Mus musculus with 12 samples.

Results

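Sialic acids are acidic sugars that end the glycan chains of cell surface proteins and lipids, and glycosphingolipids are glycans built on ceramide in the membrane. The 9 genes described here encode enzymes that make, activate, attach or modify sialic acid, or that start glycosphingolipid synthesis: Ugcg, Siae, St8sia6, St8sia4, St3gal1, St3gal6, St6gal1, Cmas and Gne. They were chosen by symbol, with earlier results on the same libraries in view, out of 48672 gene IDs counted. All 9 were among the 15704 genes that passed the filter on low counts. Their levels and fold changes are therefore a description. Where it is stated that they passed a threshold, this only places them in the fit over all genes and supports nothing. Test results are given for pathway genes outside the 9. The lists of these genes were also chosen with earlier results known, so their calls are descriptions as well.

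The RNA came from thymic iNKT (invariant natural killer T) cells, which are T cells whose semi-invariant receptor recognises lipid antigens on the presenting molecule CD1d. The 12 libraries form 4 groups of 3: wild type (WT) at stage 0, WT at stage 1, Bcl6KO at stage 0, and Bcl6KO at stage 1; group values given in a row follow this order. Bcl6 encodes a transcriptional repressor, and Bcl6KO stands for Bcl6F/F mice carrying the transgene given as CDCre, whose promoter the labels do not spell out. Every group was C57Bl/6J, was 4 to 5 weeks old, received no treatment and was sorted from the pooled thymi of 4 to 7 mice. Tetramer-binding, TCRb-positive, CD44-negative cells were taken as stage 0 where CD24 was present and as stage 1 where it was not. Whether a group's libraries were made from different pools of mice is not stated. The p-values therefore set group differences only against the spread between these libraries, which may be technical in part.

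Library totals ran from 4129919 to 8038717 counts. Cd24a, the gene of the sorting marker, stood at 149 to 313 CPM (counts per 1000000 counts of the scaled library) in the 6 stage 0 libraries and at 0.790 to 13.7 CPM in the 6 stage 1 libraries. The 7 T cell markers were counted in every library. Bcl6 counts, which cover the whole gene and so do not check a deletion of part of it, averaged 288 ± 78.9 CPM in WT and 607 ± 83.0 CPM in Bcl6KO at stage 0 (SD, n = 3 each), and 7.18 ± 2.63 CPM and 32.0 ± 21.5 CPM at stage 1. Since these counts neither show nor exclude the deletion, the libraries are called the libraries labelled Bcl6KO, or Bcl6KO for short. The 3 Bcl6KO stage 0 libraries stood apart: a single gene, Sp100, held 10.8% to 23.9% of their counts against 0.0283% to 5.03% elsewhere, and 14860 to 17734 genes were detected against 18417 to 22028. In bulk RNA, fewer cells of a type and less RNA per cell cannot be told apart.

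As background, sialic acid is built from a UDP-sugar in steps begun by the enzyme that Gne encodes, is activated to CMP-sialic acid by the enzyme of Cmas in the nucleus, and is moved into the Golgi by the transporter of Slc35a1. Sialyltransferases then place it on galactose, on N-acetylgalactosamine or on another sialic acid, each enzyme with its own linkage and acceptor. Glucosylceramide synthase, encoded by Ugcg, begins most glycosphingolipids, from which gangliosides arise when sialic acid is added. In the thymus, sialylation of surface glycans is known to change as thymocytes mature, and lipids with a sugar head group are ligands of the iNKT receptor.

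In WT cells, Ugcg was higher and Siae lower in every stage 1 library than in every stage 0 library, and the same was seen in the libraries labelled Bcl6KO. St8sia6 was also higher in every stage 1 library of both genotypes, and at stage 0 it was 13.3-fold lower in Bcl6KO than in WT. St6gal1 was lower at stage 1 in both genotypes without overlap. Cmas was lower at stage 1 without overlap in WT alone, and the other 4 genes overlapped between groups in some or all comparisons.

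**Figure D1:**
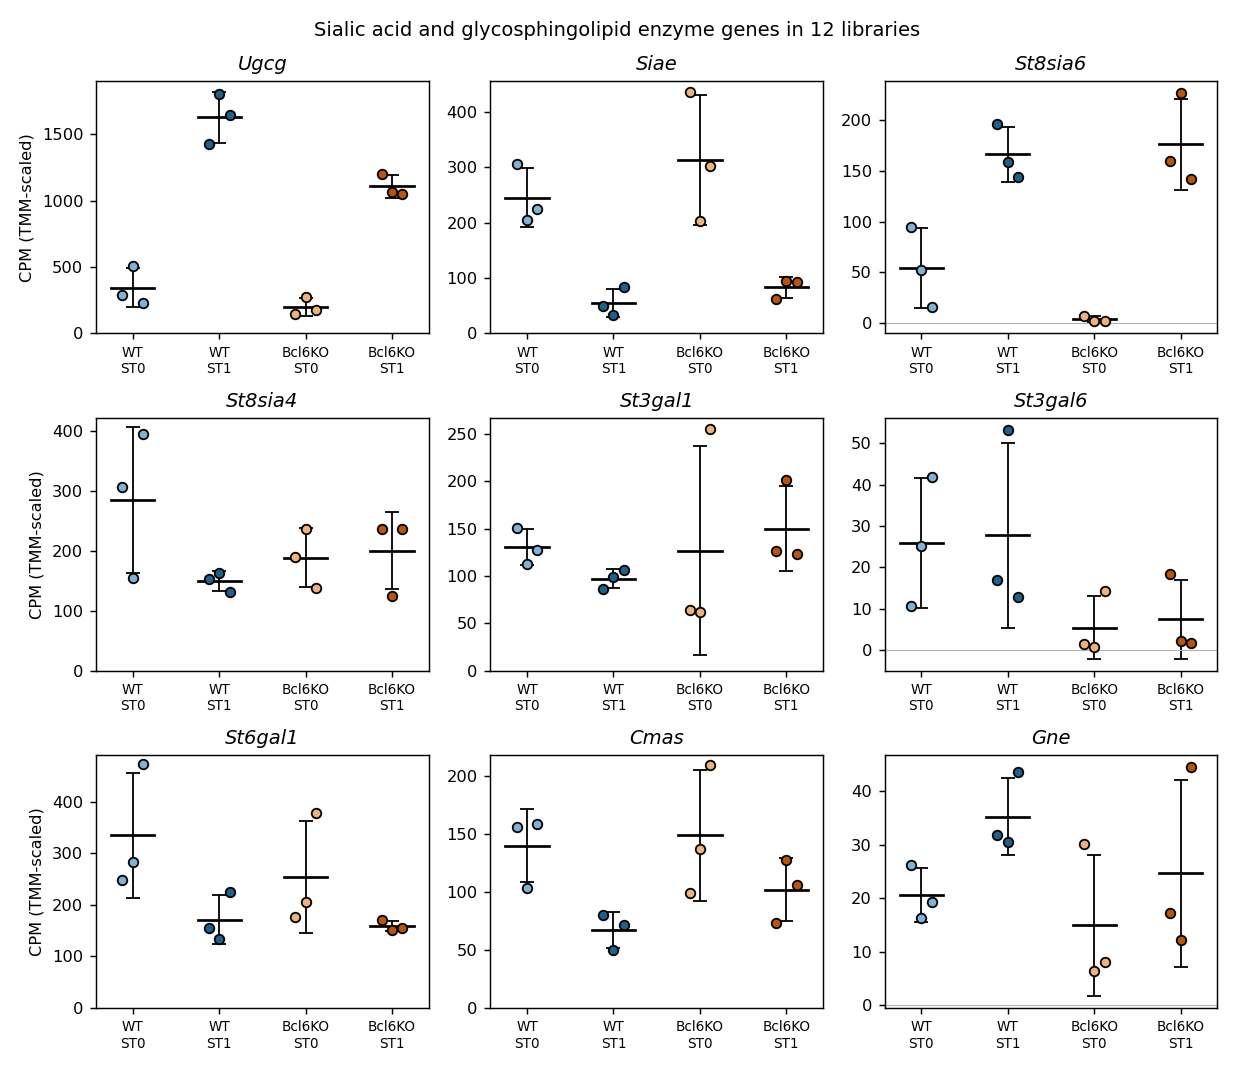
Level of each of the 9 genes in every library (points; CPM on a linear axis that differs between panels), with the group mean (horizontal line) and SD (error bar), for the 4 groups of 3 libraries. Ugcg is higher and Siae lower at stage 1 in both genotypes, and St8sia6 is lowest in the 3 Bcl6KO stage 0 libraries.

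Ugcg lies on chromosome 4 at 59189257 to 59222833 on the plus strand (GRCm38/mm10) and shares no exonic bases with another gene. Its level was 290, 511 and 229 CPM in the 3 WT stage 0 libraries and 1427, 1804 and 1649 CPM in the 3 WT stage 1 libraries. In the Bcl6KO libraries it was 147, 278 and 173 CPM at stage 0 and 1203, 1066 and 1051 CPM at stage 1. Every stage 1 library was thus above every stage 0 library. The means were 344 ± 148 and 1627 ± 190 CPM in WT, 4.73-fold apart, and 199 ± 69.3 and 1107 ± 83.9 CPM in Bcl6KO, 5.56-fold apart (SD, n = 3 each). The fitted log2 fold change from stage 0 to stage 1 was 2.24 (SE 0.32) in WT and 2.47 (SE 0.32) in Bcl6KO, and the difference of these changes was 0.23 (SE 0.43). Between genotypes, the stage 0 libraries overlapped, with a log2 difference of -0.79 (SE 0.31). At stage 1 the 3 Bcl6KO libraries all lay below the 3 WT libraries, 1.47-fold by their means, with a log2 difference of -0.56 (SE 0.30).

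The sequence before a start site of Ugcg is shown because this gene had the highest level of the 9 at stage 1. The 250 bases before the RefSeq start (GRCm38.p6) were 80.4% G or C, and 98.9% of the 32841 such windows of all genes had a lower share. St8sia6 was the other of the 9 genes that was higher at stage 1 in both genotypes without overlap. Its window was 70.8% G or C, above 91.7% of windows. All 250 bases of that window lie within annotated exons. The median window held 52.4%. Among the others of the 9 genes with a window, the share ran from 34.8% to 64.4%, both in windows of St3gal6. A pair of copies of the GC box GGGCGG, a sequence bound by SP and KLF factors, were found on the strand opposite to Ugcg, and the 30 bases at chr4:59189484-59189513 (plus strand), 66 to 37 bases before the start, span them with the boxes in capitals as they read on the gene's strand.
Ugcg: CCGCCCcttccgtcctcacgcccgCCGCCC
GENCODE places the start of Ugcg further upstream, so these bases fall within its first annotated exon. On either strand, 32.7% of all windows held the GC box.

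Siae encodes sialic acid acetylesterase, which removes O-acetyl groups from sialic acids. It lies on chromosome 9 at 37555698 to 37649655 on the plus strand. Its level was 305, 204 and 225 CPM in WT stage 0 and 49.8, 33.8 and 83.1 CPM in WT stage 1. In the libraries labelled Bcl6KO it was 435, 202 and 302 CPM at stage 0 and 62.0, 95.4 and 92.8 CPM at stage 1. All 6 stage 1 libraries lay below all 6 stage 0 libraries, whereas the genotypes overlapped at each stage. The means were 245 ± 53.5 and 55.5 ± 25.1 CPM in WT, 4.40-fold apart, and 313 ± 117 and 83.4 ± 18.6 CPM in Bcl6KO, 3.75-fold apart (SD, n = 3 each). The log2 fold change between stages was -2.14 (SE 0.40) in WT and -1.91 (SE 0.40) in Bcl6KO, and their difference was 0.23 (SE 0.55). Other genes cover part of its exons: 10.8% of the exonic bases of Siae are shared with Spa17 and Tbrg1. Spa17 averaged 33.1, 3.85, 59.5 and 6.65 CPM over the 4 groups, and Tbrg1 averaged 53.5, 49.0, 24.3 and 25.7 CPM. Spa17 was thus lower at stage 1 as Siae was, at a lower level, and its part in the counts of Siae was not tested.

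St8sia6 encodes a sialyltransferase that adds sialic acid to sialic acid, mainly on O-linked glycans. It lies on chromosome 2 at 13651021 to 13794064 on the minus strand. Its level was 94.4, 52.2 and 16.1 CPM in WT stage 0 and 196, 159 and 144 CPM in WT stage 1. The Bcl6KO values were 7.39, 2.65 and 2.17 CPM at stage 0 and 160, 227 and 142 CPM at stage 1. The 3 Bcl6KO stage 0 libraries were below all others, the WT stage 0 libraries were in between and spread widely, and the stage 1 libraries of the genotypes overlapped. The means were 54.2 ± 39.2, 166 ± 27.2, 4.07 ± 2.88 and 176 ± 45.1 CPM over the 4 groups (SD, n = 3 each). Stage 1 was 3.06-fold above stage 0 in WT and 43.4-fold above it in Bcl6KO, with log2 fold changes of 1.61 (SE 0.58) and 5.43 (SE 0.70). The genotype difference was -3.73 (SE 0.65) on the log2 scale at stage 0 and 0.09 (SE 0.57) at stage 1. The difference between these genotype effects was 3.82 (SE 0.85). Over 16 alternative settings the stage 0 genotype difference lay between -4.49 and -3.08, the lowest without Bcl6KO stage 0 library 1, the highest of its group. The difference between the effects lay between 3.17 and 4.57. The 3 Bcl6KO stage 0 libraries are the ones with the large share of Sp100 counts and the fewest genes detected; the part of either in the low level of St8sia6 was not tested. Of the exonic bases of St8sia6, 1.46% are shared with Gm37126, which averaged 1.77, 7.40, 0.133 and 8.83 CPM over the 4 groups.

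Among the genes called between stages, the threshold was an adjusted p of 0.05 over all tested genes in edgeR's quasi-likelihood test with Benjamini-Hochberg adjustment. In WT, 1 of the 9 genes (Ugcg) passed upward and 1 (Siae) downward, where 0.433% of the tested genes passed, 0.07% upward and 0.363% downward. In Bcl6KO, Ugcg and St8sia6 passed upward and Siae downward, where 0.675% of genes passed, 0.42% upward and 0.255% downward. Averaged over genotypes, these 3 genes passed in those directions, where 3.46% of genes passed, 2.04% upward and 1.42% downward. Between genotypes none of the 9 passed at stage 0 (0.0191% of genes passed), at stage 1 (0 genes passed), or averaged over stages (0.00637%), and none passed for the difference between the effects (0 genes passed). Where 0 genes passed, 404 genes at stage 1 and 1221 genes for the difference had an unadjusted p under 0.05 in edgeR, and DESeq2 passed 15 and 196 genes. St8sia6 would be counted at stage 0 and averaged over stages without the filter on low counts (-3.80 and -1.86), with DESeq2 (-3.73 and -1.82) and without Bcl6KO stage 0 library 1 (-4.49 and -2.20). It would be counted for the difference between effects in the first and second of these (3.88 and 3.83). Because the 9 genes were chosen with these comparisons in view, nothing is read from these counts.

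Counted by libraries, 7 of the 9 genes did not overlap between the stages in WT, 3 higher and 4 lower at stage 1, where 21.5% of all tested genes did not overlap, 12.5% higher and 9.06% lower. In Bcl6KO this held for 4 of 9, 2 in each direction, where it held for 17.5% of genes, 11.8% higher and 5.76% lower. Between genotypes it held for 1 of 9 at stage 0, lower, where 12.6% of genes did not overlap and 7.95% were lower. At stage 1 it held for 2 of 9, 1 higher and 1 lower, where 13.3% of genes did not overlap, 5.87% higher and 7.44% lower. The median log2 fold change of the 9 genes was -0.43 between stages in WT and 0.24 in Bcl6KO, beside 0.00 and 0.01 over all tested genes. Between genotypes it was -0.47 at stage 0 and 0.09 at stage 1, beside -0.01 and 0.02 over all tested genes.

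Whether a gene was counted depended on the setting. The log2 fold change of Siae in WT, between -2.54 and -1.87 over 16 alternative settings, stayed past the threshold in 9 of them. It missed it without WT stage 0 library 1 or 3, without WT stage 1 library 1 or 2, and without Bcl6KO stage 1 library 2 or 3. In Bcl6KO the change lay between -2.14 and -1.58 and passed in 4 of 16; it missed in every fit that left out a library except that without Bcl6KO stage 0 library 2. Ugcg in WT passed in 15 of 16 and missed without WT stage 0 library 1, where the log2 fold change was 2.11 (SE 0.37). Ugcg and St8sia6 in Bcl6KO passed in all 16, with log2 fold changes of 2.31 to 2.79 and of 5.13 to 6.19.

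**Figure D2:**
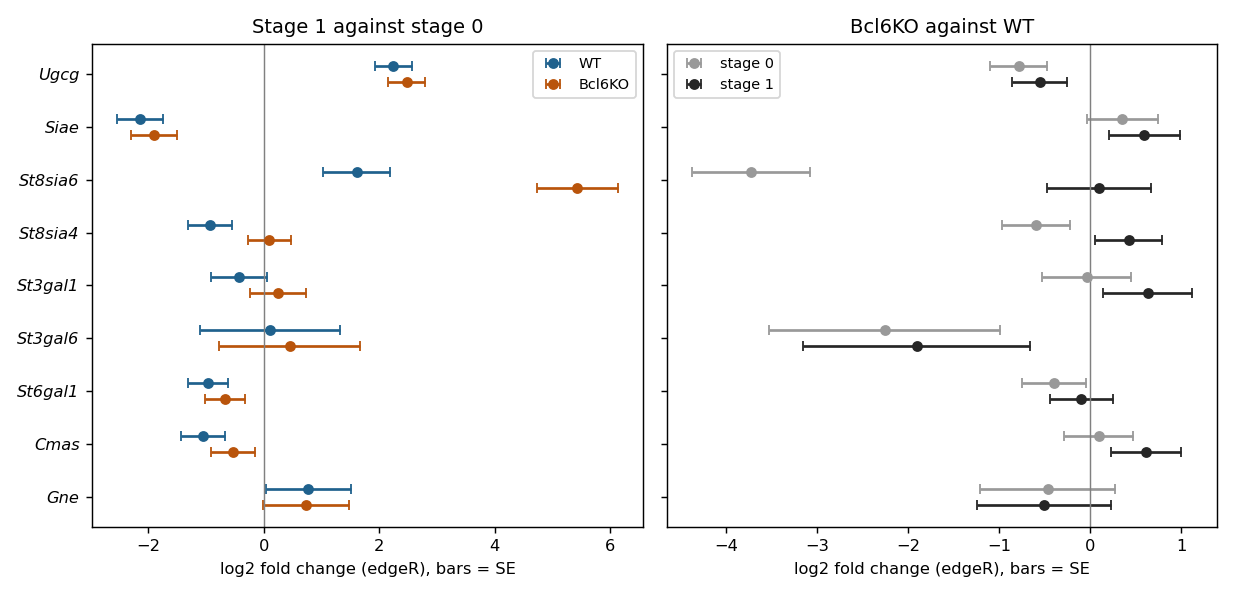
Fitted log2 fold change (edgeR, x axis) with its standard error (bars) for each of the 9 genes, between stages in WT and Bcl6KO (left) and between genotypes at stage 0 and stage 1 (right). Ugcg and Siae lie on opposite sides of 0 between the stages in both genotypes, and St8sia6 lies farthest from 0 between stages in Bcl6KO, at 5.43, and between genotypes at stage 0, at -3.73.

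St6gal1 encodes the sialyltransferase that places alpha-linked sialic acid on galactose at the ends of N-glycans, making ligands of the lectin CD22. It lies on chromosome 16 at 23224740 to 23360350 on the plus strand, 605 kb from Bcl6. Its level was 248, 283 and 473 CPM in WT stage 0 and 155, 133 and 224 CPM in WT stage 1. In Bcl6KO the level was 177, 205 and 378 CPM at stage 0 and 170, 152 and 155 CPM at stage 1. Within each genotype all stage 1 libraries lay below all stage 0 libraries, in Bcl6KO by a narrow gap, and the genotypes overlapped at both stages. The means were 335 ± 121 and 171 ± 47.6 CPM in WT, 1.96-fold apart, and 254 ± 109 and 159 ± 9.70 CPM in Bcl6KO, 1.59-fold apart (SD, n = 3 each). Its log2 fold change was -0.97 (SE 0.35) in WT and -0.67 (SE 0.35) in Bcl6KO. Averaged over genotypes it was -0.82 (SE 0.25).

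Cmas encodes CMP-sialic acid synthetase and lies on chromosome 6 at 142756686 to 142775714 on the plus strand. Its level was 156, 103 and 159 CPM in WT stage 0 and 80.1, 50 and 71.6 CPM in WT stage 1, a 2.08-fold lower mean without overlap. In Bcl6KO it was 98.8, 137 and 210 CPM at stage 0 and 73.3, 128 and 106 CPM at stage 1, and these libraries overlapped. The fitted change on the log2 scale was -1.05 (SE 0.38) in WT and -0.54 (SE 0.38) in Bcl6KO, with a difference of 0.52 (SE 0.54). The stage change of Cmas in WT was thus not shown to differ from that in Bcl6KO.

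The 250 bases before a RefSeq start are printed for these genes, for St6gal1 the first of its 3 starts in the table, because both were lower at stage 1 in WT without overlap and the windows lie outside all annotated exons. They are RefSeq sequences of GRCm38.p6 on the plus strand, at chr16:23224490-23224739 for St6gal1 and chr6:142756436-142756685 for Cmas. The capitals mark the E-box CAGGTG, a sequence bound by E proteins, which reads CACCTG because it lies on the opposite strand.
St6gal1: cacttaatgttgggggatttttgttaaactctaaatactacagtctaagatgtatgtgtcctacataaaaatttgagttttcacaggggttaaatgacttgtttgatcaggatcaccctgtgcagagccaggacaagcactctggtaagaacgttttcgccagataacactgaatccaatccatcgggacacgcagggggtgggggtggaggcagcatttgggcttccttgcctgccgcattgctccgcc
Cmas: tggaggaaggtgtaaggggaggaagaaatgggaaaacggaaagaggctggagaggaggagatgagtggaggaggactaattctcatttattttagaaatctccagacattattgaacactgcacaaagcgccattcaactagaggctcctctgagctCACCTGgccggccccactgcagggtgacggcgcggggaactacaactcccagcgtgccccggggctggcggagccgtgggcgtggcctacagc
The table of promoters held 11 windows for 7 of the 9 genes. On either strand, TTCCTNGAA, the core of the sequence bound by BCL6, was in none of the 11, and it was in 1.31% of all 32841 windows. The EGR sequence GCGTGGGCG was likewise in none, against 0.536% of all windows. CAGGTG was in a window of Cmas and of Gne (17.2% of all windows), and the RUNX sequence TGTGGT was in a window of St3gal6 and of St8sia4 (14% of all windows). The GC box was in a window of St3gal6, St8sia4 and Ugcg. A match, or its absence, describes only the letters of these windows.

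Gne encodes the enzyme that makes N-acetylmannosamine and phosphorylates it, the entry to sialic acid synthesis. It lies on chromosome 4 at 44034075 to 44084177 on the minus strand, 15.1 Mb from Ugcg. Its level was 26.2, 16.3 and 19.3 CPM in WT stage 0 and 31.7, 30.4 and 43.5 CPM in WT stage 1, without overlap. For Bcl6KO the values were 30.1, 6.45 and 8.07 CPM at stage 0 and 17.3, 12.1 and 44.5 CPM at stage 1, with wide overlap. The log2 fold change was 0.77 (SE 0.74) in WT and 0.73 (SE 0.75) in Bcl6KO. The change in Bcl6KO rested on single libraries, at 1.77 without stage 0 library 1, 0.37 without stage 0 library 2, 0.42 without stage 0 library 3 and -0.01 without stage 1 library 3. Gne and Cmas, at the entry and the end of 1 pathway, thus had fitted changes of opposite sign in each genotype, except that in Bcl6KO both were below 0 without stage 1 library 3, and none passed the threshold.

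St3gal1 encodes the sialyltransferase that caps short O-glycans on T cells, known for lowering the binding of peanut agglutinin as thymocytes mature. It lies on chromosome 15 at 67102875 to 67176830 on the minus strand. Its level was 151, 113 and 128 CPM in WT stage 0 and 86.5, 99.5 and 106 CPM in WT stage 1, 1.34-fold lower by the means without overlap. The Bcl6KO libraries had 63.7, 61.6 and 255 CPM at stage 0 and 126, 202 and 123 CPM at stage 1. The third Bcl6KO stage 0 library was the highest of all 12, while its group's other libraries were the lowest. Its fitted log2 fold change between stages was -0.43 (SE 0.49) in WT and 0.24 (SE 0.49) in Bcl6KO. Without that library the change in Bcl6KO was 1.26 and the genotype difference at stage 0 moved from -0.04 to -1.07. At stage 1 the 3 Bcl6KO libraries lay above the 3 WT libraries, 1.55-fold by the means, with a log2 difference of 0.63 (SE 0.49).

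St8sia4 encodes a polysialyltransferase, which builds long chains of sialic acid, and lies on chromosome 1 at 95587682 to 95667571 on the minus strand. Its level was 307, 154 and 395 CPM in WT stage 0 and 153, 163 and 131 CPM in WT stage 1. In Bcl6KO it was 190, 236 and 137 CPM at stage 0 and 236, 125 and 237 CPM at stage 1. The groups overlapped in all 4 comparisons. The log2 fold change between stages was -0.94 (SE 0.38) in WT and 0.09 (SE 0.37) in Bcl6KO, with a difference of 1.03 (SE 0.53).

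St3gal6 encodes a sialyltransferase that takes part in making selectin ligands and lies on chromosome 16 at 58468125 to 58524243 on the minus strand. Its level was 10.5, 25.2 and 41.9 CPM in WT stage 0 and 16.9, 53.3 and 12.7 CPM in WT stage 1. Bcl6KO libraries stood at 1.40, 0.569 and 14.2 CPM at stage 0 and 18.3, 2.19 and 1.60 CPM at stage 1. Of the 6 Bcl6KO libraries, 1 per stage was within the range of WT and the other 4 were below it, so the groups overlapped at both stages. The log2 genotype difference was -2.26 (SE 1.27) at stage 0 and -1.91 (SE 1.25) at stage 1, the widest errors of the 9 genes. Leaving out the high library gave -4.69 at stage 0 (Bcl6KO library 3) and -3.83 at stage 1 (Bcl6KO library 1). Of its exonic bases, 26% are shared with Dcbld2, which averaged 2.70, 10.4, 2.85 and 2.19 CPM over the 4 groups; the part of Dcbld2 in these counts was not tested.

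Levels of different genes were compared as CPM per kb of exon, a scale used here for that purpose alone. At stage 0, St6gal1 (68.1 ± 24.6 in WT, 51.6 ± 22.1 in Bcl6KO) and Ugcg (65.9 ± 28.5 and 38.2 ± 13.3) led the 9 genes and overlapped each other (SD, n = 3 each). At stage 1, Ugcg stood alone at the top with 312 ± 36.4 CPM per kb in WT and 212 ± 16.1 in Bcl6KO. St6gal1 followed at 34.8 ± 9.68 and 32.4 ± 1.97, with no overlap with Ugcg. St8sia6 was seventh in WT stage 0 at 7.08 ± 5.11 CPM per kb, overlapping St8sia4 above it and St3gal6 below it. In Bcl6KO stage 0 it was last at 0.531 ± 0.376, overlapping St3gal6 (0.872 ± 1.24), and at stage 1 it was the third in both genotypes at 21.7 ± 3.54 and 23.0 ± 5.89, in Bcl6KO overlapping St3gal1 (21.9 ± 6.56). Siae was the fourth in both stage 0 groups, at 23.3 ± 5.10 and 29.8 ± 11.1 CPM per kb. At stage 1 it was at 5.29 ± 2.40 in WT and 7.95 ± 1.77 in Bcl6KO, overlapping Gne in both.

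Expressed as a share of the summed CPM per kb of the 19 sialyltransferase genes matched in the files, the make-up differed between groups. St6gal1 held 42.7% ± 8.41, 27.5% ± 5.33, 35% ± 4.06 and 26% ± 1.54 over the 4 groups (SD, n = 3 each). St8sia6 held 8.31%, 5.09% and 1.11% in the WT stage 0 libraries and 21.5%, 17.4% and 13.6% in WT stage 1. It held 0.910%, 0.261% and 0.145% in Bcl6KO stage 0 and 15.8%, 23.3% and 16% in Bcl6KO stage 1. St8sia6 thus went from a minor share of the sialyltransferase transcripts at stage 0 to one nearer that of St6gal1 at stage 1 in both genotypes. The sum itself was 157 ± 28.7, 125 ± 10.5, 144 ± 45.7 and 125 ± 8.98 CPM per kb over the 4 groups, and the groups overlapped. The 5 sialyltransferases among the 9 genes made up 71.3% ± 3.98, 66.0% ± 1.52, 54.6% ± 8.10 and 70.8% ± 4.68 of it in that order.

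The share of the 5 averaged lowest in Bcl6KO stage 0, where St8sia1 took up more. St8sia1 encodes the enzyme that makes the ganglioside GD3, is not among the 9 and was singled out after its values were seen. It averaged 143 ± 15.9, 158 ± 54.4, 398 ± 200 and 122 ± 46.0 CPM in the same order of groups. Its 173, 465 and 554 CPM in Bcl6KO stage 0 lay above the 3 WT stage 0 libraries, 2.79-fold by the means. That difference did not pass the threshold, with a log2 difference of 1.48 (SE 0.43) and an adjusted p of 0.180 in edgeR. Its share of the sum was 10.1% ± 2.74 in WT stage 0 and 28.5% ± 10.2 in Bcl6KO stage 0.

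**Figure D3:**
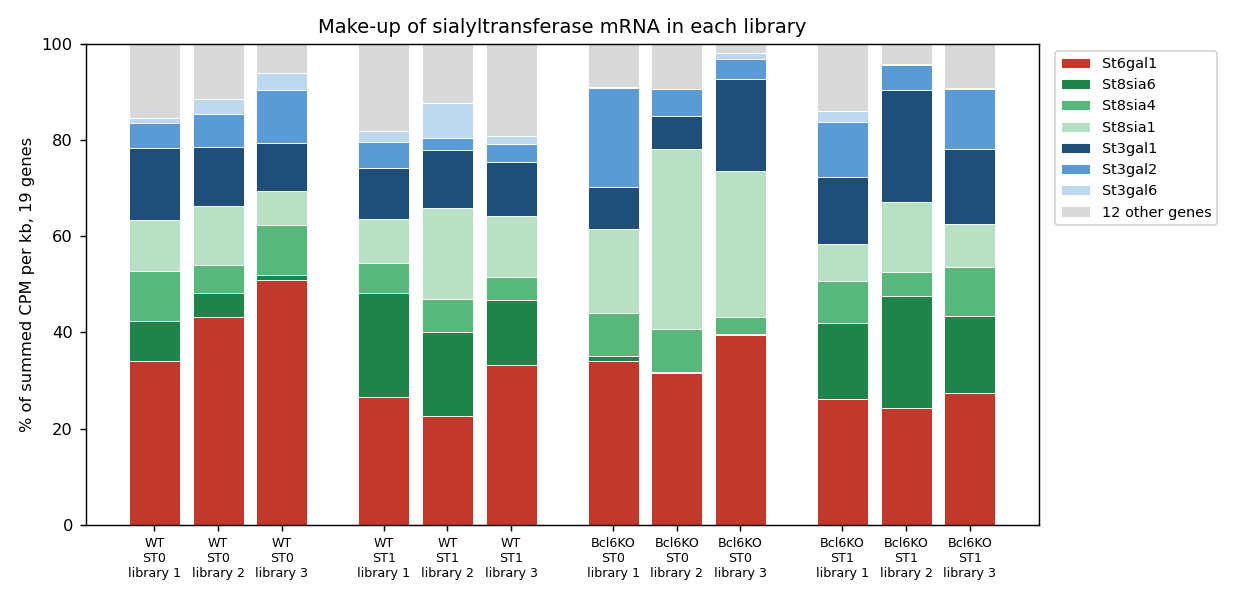
Share of each sialyltransferase in the summed CPM per kb of the 19 matched sialyltransferase genes (stacked bars, percent, from 0 to the full sum), 1 bar per library. St8sia6 holds 0.145% to 0.910% in Bcl6KO stage 0 and 13.6% to 23.3% in the 6 stage 1 libraries.

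Other genes of these pathways were taken from 8 lists of 117 genes in all, of which 115 matched 1 gene ID. The lists were written with earlier results of these data known, so the calls on their genes describe these libraries. Without the 9 genes, 78 list genes could be tested. Between stages, 1 fell and 0 rose in WT, where 0.433% of all tested genes passed. In Bcl6KO 1 rose and 0 fell, where 0.675% passed, and 4 rose and 1 fell when averaged over genotypes, where 3.46% passed. Between genotypes, and for the difference between effects, 0 of the 78 passed in edgeR. At an unadjusted p under 0.05, 19 of the 78 would be counted between genotypes at stage 0, 3 at stage 1, 17 averaged over stages and 8 for the difference between effects. Of all tested genes, 14.7%, 2.57%, 10.9% and 7.78% would be. DESeq2 passed 9, 0, 8 and 4 list genes, the 9 included, in that order. The median log2 fold change of the 78 was 0.20 between stages in WT and 0.15 in Bcl6KO, beside 0.00 and 0.01 over all tested genes.

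Ptprc, which encodes CD45, a large sialylated phosphatase of the T cell surface, fell between stages in WT. Its level was 1829, 1647 and 1899 CPM in WT stage 0 and 970, 950 and 676 CPM in WT stage 1. In Bcl6KO it was 1966, 2085 and 1998 CPM at stage 0 and 1500, 1127 and 1160 CPM at stage 1. All stage 1 libraries were below all stage 0 libraries. Its log2 fold change was -1.05 (SE 0.20; edgeR adjusted p = 0.0393) in WT and -0.68 (SE 0.20; edgeR adjusted p = 0.120) in Bcl6KO. Their difference, 0.37 (SE 0.28), did not pass (edgeR adjusted p = 0.817). The WT call was kept in 6 of 16 alternatives. It was lost without any 1 of the WT libraries other than stage 0 library 2, and without Bcl6KO stage 0 library 1 or 3 or stage 1 library 2 or 3, with values between -1.14 and -0.89 over all 16. Averaged over genotypes the change was -0.86 (SE 0.14; edgeR adjusted p = 0.00563) and passed in all 16.

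Cd52, a small glycoprotein that carries sialylated N-glycans, rose when the stages were averaged over genotypes, by 1.95 on the log2 scale (SE 0.34; edgeR adjusted p = 0.00872). Its means were 75.3 ± 39.8 and 270 ± 71.3 CPM in WT and 70.4 ± 37.9 and 293 ± 26.7 CPM in Bcl6KO (SD, n = 3 each), and all stage 1 libraries were above all stage 0 libraries. Crybg2 shares 14.5% of the exonic bases of Cd52, and its part in these counts was not tested. Cptp, a ceramide-1-phosphate transfer protein, had 0 counts in the 3 Bcl6KO stage 0 libraries and 6.36, 5.76 and 29.5 CPM in Bcl6KO stage 1. It was at least 23.7-fold higher at stage 1, against a floor of 3 counts per library averaged over the group (edgeR adjusted p = 0.0411), and at least 10.3-fold without stage 1 library 3. That call was kept in 7 of 16 alternatives. It was lost without any 1 WT stage 1 or Bcl6KO stage 1 library, or without Bcl6KO stage 0 library 2 or 3, with adjusted p of 0.0698 to 0.123. In WT, Cptp averaged 2.89 ± 1.94 CPM at stage 0 and 8.99 ± 3.27 CPM at stage 1.

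Fut7, a fucosyltransferase needed for selectin ligands, passed upward averaged over genotypes (edgeR adjusted p = 0.0318), in 6 of 16 alternatives. In WT it averaged 0.330 ± 0.231 CPM at stage 0 and 10.1 ± 4.54 CPM at stage 1. In Bcl6KO it had 0 counts in each stage 0 library, and 3.58, 0 and 4.39 CPM in those of stage 1. That call was lost without any 1 of the 6 WT libraries. Leaving out library 3 of Bcl6KO stage 0, or library 1 or 3 of Bcl6KO stage 1, also ended it, with edgeR adjusted p between 0.0534 and 0.0901.

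By list, the sialic acid synthesis, activation and transport genes had 0 of 8 tested genes called in each comparison, with a median log2 fold change between stages of 0.05 in WT and -0.46 in Bcl6KO. The sialyltransferases other than the 5 had 0 of 9 called, with medians of 0.15 and 0.33. The sialidases and O-acetyl modifiers other than Siae had 0 of 4, with medians of 0.00 and -0.57, and glycosphingolipid synthesis other than Ugcg had 0 of 6, with medians of -0.11 and 0.68. Between stages averaged over genotypes, where 3.46% of all tested genes passed, 1 of 20 (Cptp) passed in ceramide synthesis and transfer. In the glycan chains that carry sialic acid, 3 of 15 did (Cd52, Fut7 and Ptprc). Between stages within a genotype, only Ptprc in WT and Cptp in Bcl6KO passed from these lists, where 0.433% and 0.675% of all tested genes did. Of the 12 sialic acid binding lectins, 2 had enough counts for a test and neither passed.

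**Figure D4:**
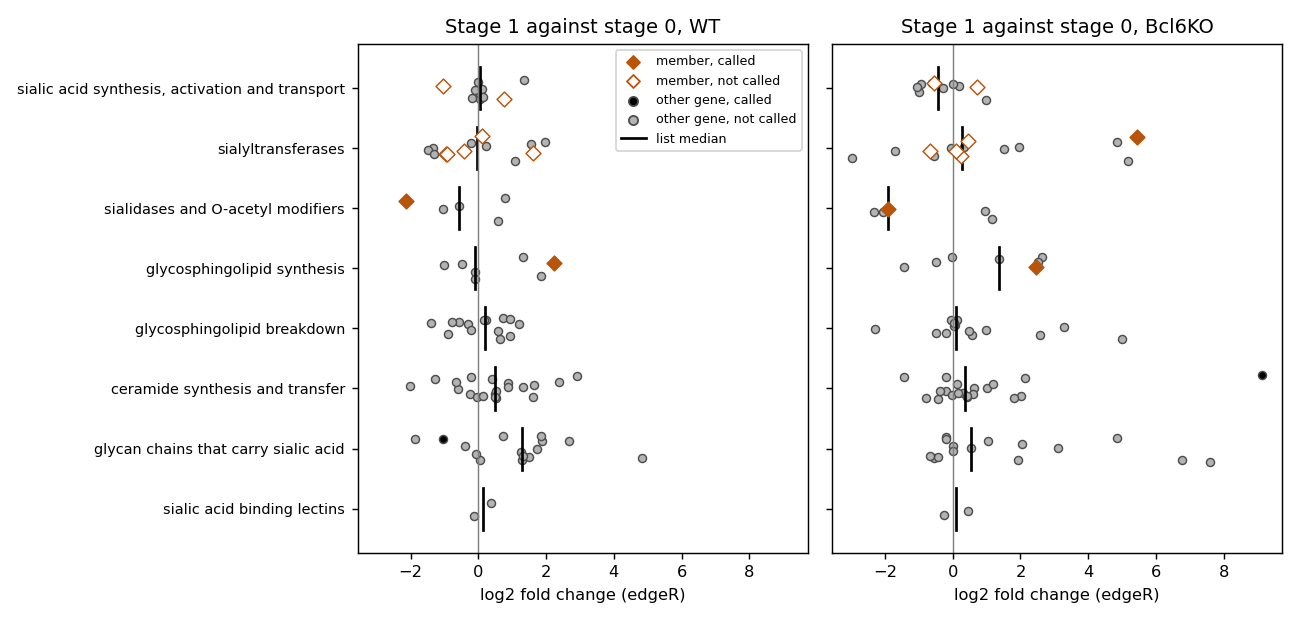
Fitted log2 fold change between stages (edgeR, x axis) of every tested gene of the 8 pathway lists, in WT (left) and in Bcl6KO (right). Orange diamonds are the 9 genes, grey or black circles the other list genes, filled orange or black symbols passed an adjusted p of 0.05 over all tested genes, and vertical bars are list medians. The value of Cptp at the far right of the Bcl6KO panel depends on a prior count, since its stage 0 libraries had 0 counts.

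The most abundant genes of the lists were found by CPM per kb averaged over the 4 groups. Ugcg led glycosphingolipid synthesis at 157 CPM per kb, St6gal1 led the sialyltransferases at 46.7, and Psap, the precursor of lysosomal activator proteins, led breakdown at 28.9; each led in all 4 groups. Slc35a1, the Golgi transporter of CMP-sialic acid, led its list at 40.1 CPM per kb and in 3 of 4 groups, not in WT stage 0. Neu3, a sialidase that acts on gangliosides, averaged 34.9 CPM per kb, ahead of Siae in 3 of 4 groups and behind it in WT stage 0 (22.7 against 23.3). The average of Neu3 was raised by 1 library, and its lead over Siae in Bcl6KO stage 0 rested on that library. It had 51.3, 729 and 42.9 CPM in Bcl6KO stage 0 and 38.9 to 104 CPM in the other 9 libraries. Gltp, a glycolipid transfer protein, led ceramide synthesis and transfer at 63.8 CPM per kb and Cd52 its list at 149, both in the stage 1 groups and in neither stage 0 group.

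Some sums of markers of other cells averaged lower or higher at stage 1 than at stage 0. The 8 double-positive thymocyte markers (the stage before iNKT cells branch off) summed to 540 to 1630, 202 to 590, 1327 to 1405 and 446 to 973 CPM over the 4 groups. They include Cd4, which is also an early iNKT marker, so this sum is not particular to double-positive cells. The 6 early iNKT markers, Cd4 included, summed to 1691 to 2106, 1267 to 1875, 1550 to 1951 and 1429 to 2038 CPM. All 8 double-positive markers were counted in every stage 0 library and 5 of 8 in every library of each stage 1 group, and Rag2 was at 0 in WT stage 1. The double-positive sum averaged lower at stage 1, as Siae, St6gal1 and Ptprc did, and its part in their levels was not tested. The 5 gamma-delta T cell markers summed to 20.5 to 1027, 1372 to 3637, 9.67 to 184 and 748 to 1044 CPM over the 4 groups. Of these 5, none was at 0 throughout a group, and 3 to 5 were counted in every library of a group. That sum averaged higher at stage 1 and lowest in Bcl6KO stage 0, as St8sia6 did, and its part was not tested. The 6 B cell markers summed to 6.69 to 57.4, 1.38 to 4.78, 18.7 to 169 and 3.18 to 8.98 CPM over the 4 groups. Ms4a1 was at 0 in both stage 1 groups, and the part of these cells in Siae and St6gal1 was not tested. The sort was set for tetramer-binding, TCRb-positive cells, and how fully it left out B cells and gamma-delta T cells was not tested. The myeloid markers summed to 10.9 to 98.4 CPM over all libraries, the dendritic cell markers to 50.9 to 150 CPM, the thymic epithelial markers to 29.7 to 86.8 CPM and the erythroid markers to 0 to 23.4 CPM.

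The genes whose levels tracked the 3 most variable of the 9 were found by Pearson's r of log2 CPM across the 12 libraries, among 9828 genes; the libraries share stage, genotype and depth, so these are descriptions. For St8sia6 they were Gabrr2 (r = 0.972), Il4 (0.971), the cytokine interleukin 4, and Klf10 (0.971). Il4 averaged 16.8 ± 13.1, 50.5 ± 8.96, 1.52 ± 1.80 and 45.4 ± 27.9 CPM over the 4 groups, the order of levels seen for St8sia6 at stage 0. For Ugcg they were Ntng2 (0.970), Prag1 (0.964) and Lgals3 (0.959), which encodes the galactose-binding lectin galectin-3. Lgals3 averaged 0.919 ± 1.08, 26.8 ± 4.82, 0.198 ± 0.197 and 12.3 ± 5.59 CPM in the same order, again lower in Bcl6KO than in WT at stage 1. For St3gal6 they were Pcyox1 (0.945), Rpl18 (0.883) and Clk1 (0.880).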

How the data were processed

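RNA-seq of 12 libraries of sorted mouse thymic iNKT cells was used, grouped by genotype, stage and number in the sample titles. Per the labels, a QIAGEN kit served for extraction and a NuGEN low-input kit for library construction. The authors deposited a file of raw counts for each library. The submitters' processing notes name bcl2fastq, TopHat2, Bowtie2, DESeq and build mm10. Tool versions, the program that counted reads, its annotation and its use of strand: not given in the sources used here. Without strand, reads of overlapping genes on opposite strands cannot be told apart.

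GENCODE M21 gave symbols for 48312 of 48672 IDs, with coordinates and exon lengths. Counts were scaled by TMM, filtered with filterByExpr and tested with edgeR 4.0.16 (R 4.3.3, limma 3.58.1), with 1 mean per group, robust quasi-likelihood dispersion and 8 residual degrees of freedom, two-sided, adjusted over 15704 genes by Benjamini-Hochberg. The common biological coefficient of variation was 0.835. The SE (standard error) of an edgeR log2 fold change was derived from its test. It was the absolute change divided by the square root of the quasi-likelihood F statistic. CPM use TMM-scaled totals. The floor of 3 counts in a library, 0.569 to 0.615 CPM, covers counting error only. No correction for amplification was made here. Libraries of 1 group differed beyond sampling noise (chi-square per gene 27.6 to 170), so all 12 were kept. Alternatives were no filter on low counts, DESeq2 size factors, DESeq2 1.42.0, the replicate number as a block, and leaving out each library; levels were also scaled by raw totals.

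The 9 genes and the pathway lists were chosen with earlier results of these data known. Named beside the 9 genes were list genes past the threshold, the most abundant gene of each list, and the 3 genes most like each of the 3 most variable members with a mean of at least 5 CPM; some genes that this rule names are not reported here. Promoter windows were RefSeq sequences of GRCm38.p6. Chromatin accessibility libraries were not analysed here.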

Additional observations from a re-analysis of the deposited data

How the results depend on the processing

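Of 1008 refitted log2 fold changes of the 9 genes (16 alternatives), 967 kept their sign and 41 did not, and of those that passed the threshold as reported 0 changed sign. On the threshold, 20 no longer passed and 9 newly passed; of the others, 12 moved by more than their spread between libraries. Counts of genes called moved far more, and how many genes pass depends on the tool. Without a filter on low counts, 142 genes instead of 68 passed between stages in WT, 309 instead of 106 in Bcl6KO, 830 instead of 544 averaged; between genotypes 103 instead of 3 passed at stage 0, 11 instead of 0 at stage 1, 88 instead of 1 averaged, and 7 instead of 0 for the difference between effects. With DESeq2 these counts were 385, 1452, 1699, 1111, 15, 542 and 196. Of the pathway genes, 9 members included, 8 instead of 4 passed between stages in Bcl6KO without a filter, 2 instead of 0 between genotypes at stage 0, 2 instead of 0 averaged and 1 instead of 0 for the difference; with DESeq2, 7 passed between stages in WT, 16 in Bcl6KO, 18 averaged, 9 between genotypes at stage 0, 8 averaged and 4 for the difference. Scaling by DESeq2 size factors moved no count by over 1.5 times.

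Same-numbered libraries deviated from their group means with correlations of -0.075 to 0.12. Libraries of different numbers were not compared, so these values cannot decide whether replicate numbers pair the libraries. With the replicate block, 39 genes passed between stages in Bcl6KO and 1 between genotypes at stage 0; of the pathway genes, 1 passed between stages in WT instead of 3 and 2 in Bcl6KO. The calls on Siae in each genotype, at -2.18 and -1.84, and those on Ptprc in WT, Cptp and Fut7 were lost under it.

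Leaving out 1 library gave 20 to 139 genes between stages in WT, 7 to 277 in Bcl6KO and 193 to 708 averaged, and between genotypes 0 to 133 at stage 0, 0 to 1 at stage 1, 0 to 62 averaged and 0 to 0 for the difference. For pathway genes these ranges were 0 to 3, 2 to 7, 6 to 11, 0 to 3, 0 to 0, 0 to 1 and 0 to 0. The highest count between genotypes at stage 0, 133, was without Bcl6KO stage 0 library 1, and the lowest between stages in Bcl6KO, 7, was without Bcl6KO stage 1 library 3. Of 72 group levels under other scalings, 67 stayed within 1 SD; on raw totals Ugcg was 1832 CPM in WT stage 1 and 1207 in Bcl6KO stage 1, St8sia4 169 and St3gal1 109 in WT stage 1, and St6gal1 174 in Bcl6KO stage 1. Apart from what the construction of each alternative shows, the cause was not tested.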

Other observations

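B4galnt1, which encodes the enzyme that extends gangliosides with N-acetylgalactosamine, was singled out after its values were seen, as the second most abundant gene of glycosphingolipid synthesis. Its level was 21.9, 82.1 and 38 CPM in the WT stage 0 libraries and 131, 160 and 219 CPM in those of WT stage 1. In Bcl6KO it was 109, 16.3 and 68.3 CPM at stage 0 and 118, 217 and 162 CPM at stage 1. Stage 1 libraries were above stage 0 libraries in both genotypes, 3.6-fold by the means in WT and 2.57-fold in Bcl6KO, without overlap. Slc26a10 shares 20.7% of the exonic bases of B4galnt1, and its part in these counts was not tested. Averaged over genotypes the log2 fold change of B4galnt1 was 1.60 (SE 0.44), which missed the threshold (edgeR adjusted p = 0.0615).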
